A study of Mus musculus with 23 samples.

Results

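Elane, Mpo, Prtn3, Ctsg, Ms4a3, Nkg7 and Fcnb are 7 genes of the neutrophil granule programme, chosen by symbol from the 23536 gene rows of a single-cell table of mouse bone marrow. All 7 were present as a single row each. The cells were measured with CEL-seq, in which each transcript carries a short random tag that is counted. Micro-dissected cells came from small clumps of marrow cells that were separated by needle, and 707 of 1546 such cells, from 17 libraries, had at least 1000 transcripts and were kept. Sorted haematopoietic stem cells (HSC; Lineage- Kit+ Sca1+ CD150+ CD48-) gave 245 kept cells of 369, from 4 libraries. The labels name no strain, sex, age, treatment or number of animals, and tie no library to an animal, so p-values rest on how libraries vary, and that variation may be technical.

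Primary, or azurophil, granules are the first granules that a neutrophil precursor makes, at the promyelocyte stage, before the secondary granules of the myelocyte. Elane (neutrophil elastase), Prtn3 (proteinase 3) and Ctsg (cathepsin G) are their serine proteases, and Mpo (myeloperoxidase) is a haem enzyme that makes hypochlorous acid. Ms4a3 is a membrane protein of granulocyte and monocyte progenitors, Nkg7 is a granule membrane protein best known from cytotoxic lymphocytes, and Fcnb (ficolin B) is a lectin of the complement system. Transcription of the granule genes is under PU.1, MYB and C/EBP factors, and the transcripts are lost again as the cell matures.

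Elane and Prtn3 are neighbours on chromosome 10 of mm10, with Prtn3 at chr10:79874476-79883174 and Elane at chr10:79886247-79888215, both on the plus strand and 3072 bases apart. The other members each lie on a chromosome without another member. Mpo is at chr11:87793581-87804413 and Nkg7 at chr7:43437073-43438249, both on the plus strand. Ctsg is at chr14:56099881-56102574, Ms4a3 at chr19:11629496-11640851 and Fcnb at chr2:28076378-28084885, all on the minus strand (GENCODE vM21). The 5′ end of the Prtn3 gene model overlaps Plppr3, and the Mpo gene model overlaps Gm11505, each on the opposite strand. No annotated gene overlaps the 3′ end of any member, which is where CEL-seq reads. Promoters of 250 bases before to 50 bases after the start were taken from RefSeq (GRCm38.p6), which had all 7. The 8-base PU.1 motif GAGGAAGT, searched on both strands, was found in those of Elane, Prtn3 and Mpo, whose transcripts were the most abundant of the set, and in 3.2% of 32851 mouse promoters. The C/EBP motif TTGCNNAA was found in those of Fcnb and Ms4a3 and in 10.8% of all promoters, and the MYB motif AACNG in 6 of the 7 and in 80.3% of all, so its presence is common. These 4 are shown because they hold the PU.1 motif or more than 1 C/EBP match, with PU.1, MYB and C/EBP matches in capitals (matches of different motifs can touch or overlap). A match is a run of letters and not a measured binding site.
Elane promoter, chr10:79886062-79886361, plus strand: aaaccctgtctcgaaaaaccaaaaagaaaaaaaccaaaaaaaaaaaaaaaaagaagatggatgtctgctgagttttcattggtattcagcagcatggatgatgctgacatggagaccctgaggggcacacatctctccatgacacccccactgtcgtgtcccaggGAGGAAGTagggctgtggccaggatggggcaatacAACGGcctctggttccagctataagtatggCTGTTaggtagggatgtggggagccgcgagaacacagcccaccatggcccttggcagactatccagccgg
Prtn3 promoter, chr10:79879417-79879716, plus strand: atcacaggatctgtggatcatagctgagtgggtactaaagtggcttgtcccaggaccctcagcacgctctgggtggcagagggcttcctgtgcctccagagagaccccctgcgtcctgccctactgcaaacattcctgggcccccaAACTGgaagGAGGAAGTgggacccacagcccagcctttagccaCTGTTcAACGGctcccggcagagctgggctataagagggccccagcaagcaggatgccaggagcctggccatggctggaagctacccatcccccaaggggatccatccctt
Mpo promoter, chr11:87793534-87793833, plus strand: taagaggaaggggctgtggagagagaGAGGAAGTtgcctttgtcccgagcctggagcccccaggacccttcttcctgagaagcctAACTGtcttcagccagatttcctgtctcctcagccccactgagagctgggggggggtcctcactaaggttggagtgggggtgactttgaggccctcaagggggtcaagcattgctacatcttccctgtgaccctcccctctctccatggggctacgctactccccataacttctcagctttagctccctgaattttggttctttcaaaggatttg
Fcnb promoter, chr2:28084829-28085128, minus strand: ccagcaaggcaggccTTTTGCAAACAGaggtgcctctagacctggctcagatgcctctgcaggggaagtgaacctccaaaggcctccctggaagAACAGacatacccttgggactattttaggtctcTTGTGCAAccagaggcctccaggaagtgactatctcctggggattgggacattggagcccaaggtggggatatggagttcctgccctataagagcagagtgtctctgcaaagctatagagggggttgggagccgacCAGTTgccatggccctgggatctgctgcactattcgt
Counted from the transcription start, the PU.1 match begins at -85 in Elane, -95 in Prtn3 and -224 in Mpo. The C/EBP matches of the Fcnb promoter begin at -235 and -123. The motifs were not tested against the members' levels, and Ms4a3 holds the C/EBP motif while Ctsg and Nkg7 hold neither it nor the PU.1 motif. RUNX and TATA motifs were also searched. The RUNX motif TGTGGT was found in Ctsg and Nkg7 and in 16.8% of all promoters. TATAAG was found in Elane, Prtn3 and Fcnb and in 7.43% of all.

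Depth per library was 9032 to 313488 transcripts in dissected libraries (6 to 73 kept cells) and 3119 to 238770.1 in sorted HSC libraries (2 to 91 kept cells), with a median of 2272 and 1926 transcripts per cell. The stem-cell genes Procr and Mecom were found in 47 and 54 sorted cells and in 0 dissected cells, and Cd48, which the sort excluded, in 2 sorted cells. Kit and Ly6a (Sca1), which the sort selected, were found in 147 and 105 sorted cells and in 80 and 56 dissected cells. Hlf was found in 163 sorted and 16 dissected cells. Sorted HSC replicate 1 held only 2 cells. Dissected replicates 1 to 5 stand apart through an unnamed cluster of 59 cells found only in them, and each comparison with sorted HSC was repeated without them. Dissected cells were clustered without the members and without the genes of their pathway, and clusters were named from markers. The promyelocyte-like cluster (61 cells) was led by Cst7, Gstm1, Prss57 and Plac8, 2 myelocyte-like clusters (146 cells) by secondary granule and related genes, and the mature neutrophil-like cluster (56 cells) by Il1b, Retnlg, Clec4d and Mmp9. These 263 cells are called the neutrophil line here.

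The first comparison asked how the granule genes of dissected marrow cells stand against those of stem cells, in transcripts summed per library. Elane had 1.14, 13.98 and 67.8 transcripts per 10000 in the lowest, median and highest dissected library, against 0 in each of the 4 sorted HSC libraries. Mpo had 0.267, 8.17 and 50.1 in dissected libraries, against 0.042 in sorted HSC replicate 3 and 0 in the other 3. Ctsg had 0.0531, 3.25 and 12.6 in dissected libraries and Fcnb 1.36, 3.19 and 11.8, against 0 in all sorted HSC libraries for both. For these members and for Ms4a3 no dissected library overlapped the sorted ones. How many of all genes were separated in this way was not counted, here or in the comparisons that follow. Ms4a3 had 0.693, 3.91 and 10.5 in dissected libraries, against 0.0856 in sorted HSC replicate 4 and 0 in the other 3. Nkg7 had 0, 2.23 and 4.55 in dissected libraries, against 0, 0.168, 0.342 and 0.445 in sorted HSC replicates 1, 3, 4 and 5. Prtn3 had 1.21, 10.4 and 43.7 in dissected libraries, against 0, 1.72, 2.31 and 1.45 in sorted HSC replicates 1, 3, 4 and 5. The ranges of Prtn3 and Nkg7 overlapped between the groups, through the lowest dissected libraries, as the plot of levels by library shows.

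**Figure D1:**
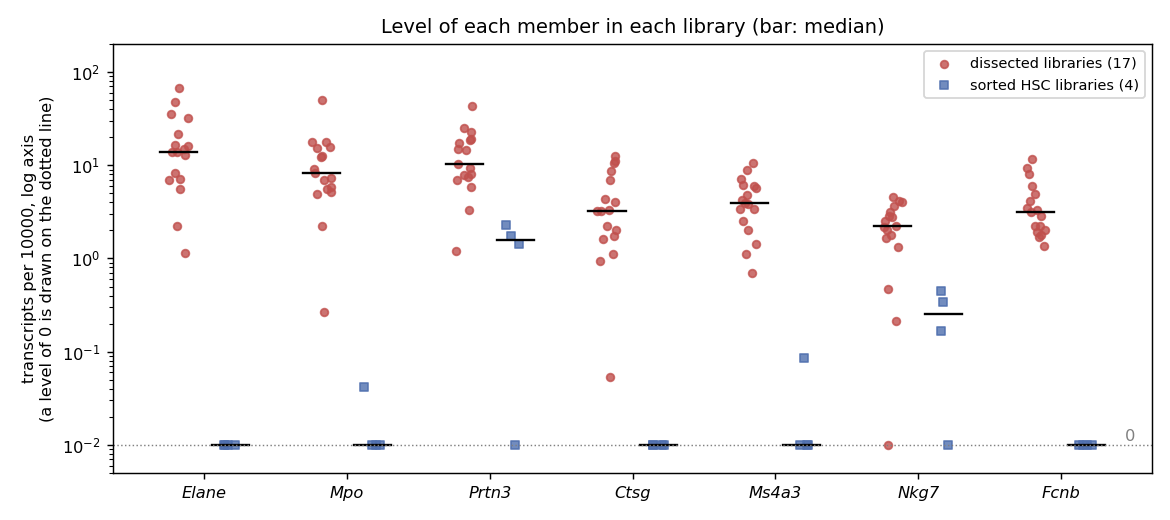
Transcripts per 10000 of each member in the 17 dissected and the 4 sorted HSC libraries, on a log axis with a level of 0 drawn on the dotted line and a bar at the median. Sorted HSC libraries lie at 0 for Elane, Ctsg and Fcnb, while Prtn3 reaches 2.31 there.

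All 7 members were higher in dissected libraries by edgeR's quasi-likelihood test with Benjamini-Hochberg adjustment, where 19.2% of the 3639 genes tested were called higher. Pooled over cells, Elane was at least 281-fold, Ctsg at least 91.5-fold and Fcnb at least 61.9-fold higher than the limit of 3 counts over the sorted group (adjusted p = 0.000134, 0.000996 and 7.55e-07, edgeR). With 1 count each in sorted HSC, the pooled ratio was 782 for Mpo (exact 95% counting interval 140.2 to 30887) and 262 for Ms4a3 (47.0 to 10367), with adjusted p = 9.32e-05 and 3.25e-07 in edgeR. Fitted log2 fold changes were 3.16 ± 0.74 (approximate SE) for Prtn3 and 3.07 ± 0.63 for Nkg7 (adjusted p = 0.00254 and 0.000286, edgeR). In sums of mixed cells, fewer cells of a type and less RNA per cell cannot be told apart. The 7 calls held in all 10 alternatives run, among them the one without dissected replicates 1 to 5. Scaling by library totals moved the median of all genes by -0.32 on the log2 scale, and the split of calls from 698 higher and 408 lower to 558 higher and 754 lower, while Prtn3 stood at 2.86 and Nkg7 at 2.78.

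Set against promyelocyte-like cells alone, the distance to stem cells was larger. Elane had 38.3, 69.0 and 106 transcripts per 10000 in the lowest, median and highest of 8 libraries with at least 3 promyelocyte-like cells, Prtn3 24.7, 64.1 and 118, and Mpo 21.3, 48.1 and 135. Ctsg had 8.62, 20.6 and 46.8, Ms4a3 6.26, 19.2 and 33.0, Nkg7 8.97, 10.6 and 16.2, and Fcnb 2.22, 7.22 and 24.4. Every one of these libraries lay above every sorted HSC library for each member. Pooled over these cells, Elane, Mpo and Prtn3 made up 25.7, 24.8 and 26.8% of the 7 members' transcripts, and Fcnb 2.91%. All 7 were called higher in promyelocyte-like cells, where 27.7% of the 837 genes tested were called higher (edgeR). Log2 fold changes were 5.04 ± 0.45 for Prtn3 and 4.90 ± 0.43 for Nkg7 (adjusted p = 5.49e-13 and 4.06e-13, edgeR). Elane was at least 1370.4-fold, Ctsg at least 464-fold and Fcnb at least 156-fold higher when pooled (adjusted p = 1.06e-17, 7.64e-11 and 0.000695, edgeR). The pooled ratio was 3978 for Mpo (713 to 157187) and 1165 for Ms4a3 (208 to 46053), with adjusted p = 2.52e-13 and 9.9e-16 in edgeR. All 7 calls held without dissected replicates 1 to 5 and with DESeq2, which moved the median of all genes by 0.19 on the log2 scale and gave 254 higher and 91 lower calls, against 232 higher and 154 lower in edgeR. Median depth was 5658 transcripts in promyelocyte-like and 1926 in sorted cells, and no library held both, so the class cannot be told apart from the way the cells were collected.

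Prtn3 was the 1 member found in many sorted HSC. A Prtn3 transcript was present in 61 of 61 promyelocyte-like cells and in 78 of 245 sorted HSC, which is 31.8% (exact 95% binomial interval 26.1 to 38.1%; these intervals cover counting error only). Of the 78 sorted cells, 63 had 1 transcript, 14 had 2 and 1 had 3. The cells came from 3 libraries, 34 of 91 in replicate 3, 21 of 72 in replicate 4 and 23 of 80 in replicate 5, with 0 of 2 in replicate 1. Elane, the next gene on the chromosome, was found in 0 of 245 sorted cells, which allows a share of cells with a detected transcript of up to 1.49% and sets no limit on cells that express it below detection, and Mpo and Ms4a3 in 1 cell each. Nkg7 was found in 14 sorted cells, of which 5 also had Prtn3. In erythroblast-like cells, which should lack all of them, Elane, Mpo and Prtn3 were found in 15.2, 21.1 and 14.8% of 237 cells at a median of 1782 transcripts. Prtn3 was thus not the most frequent of the 3 there. These shares were 8.22, 15.5 and 8.22% when the cells were thinned to 1000 tags. Thinned to 1000 tags per cell, the Prtn3 share was 93.4% in promyelocyte-like cells. It was 8.22% (4.94 to 12.7%) in erythroblast-like cells and 13.9% (9.81 to 18.8%) in sorted HSC, with overlapping intervals.

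Prtn3 made up 25.9, 21.6, 29.2, 34.6, 35.01, 33.1, 31.3 and 30.8% of the summed Elane, Mpo, Prtn3 and Ctsg transcripts in promyelocyte-like cells of dissected replicates 2, 4, 10, 11, 13, 15, 16 and 17. In sorted HSC replicates 3, 4 and 5 it made up 97.6, 100 and 100%, and replicate 1 had no transcript of the 4. The means were 30.2% ± 4.57 (SD, n = 8) in promyelocyte-like cells and 99.2% ± 1.37 (SD, n = 3) in sorted HSC, with no overlap. A test added after the values were seen gave p = 0.00606 (exact permutation test, 2-sided, the smallest that 165 splits allow). Elane and Ctsg had 0 transcripts in sorted HSC and Mpo had 1. The sorted shares follow from those counts, so the test adds no separate support. The sums behind the sorted shares are small, at 26.1 to 42.1 transcripts. Of genes nearby, Cfd (complement factor D) had 0 transcripts in sorted HSC and Ptbp1 (an RNA-binding protein) 157 transcripts in 100 cells.

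Along the neutrophil line, 6 of the 7 members fell steeply at the step after the promyelocyte, while Fcnb did not pass the test in either direction. Elane averaged 6.80 ± 4.81 transcripts per 10000 in myelocyte-like and 71.6 ± 25.8 in promyelocyte-like cells of the 6 libraries with at least 3 cells of each class (SD, n = 6 each). Mpo averaged 4.43 ± 3.60 and 69.5 ± 37.8, Prtn3 8.05 ± 3.08 and 78.4 ± 25.6, and Ctsg 0.550 ± 0.421 and 24.5 ± 13.9 in myelocyte-like and promyelocyte-like cells. Ms4a3 averaged 4.43 ± 1.55 in myelocyte-like and 22.3 ± 7.51 in promyelocyte-like cells, and Nkg7 1.28 ± 0.598 and 11.2 ± 2.55. For these 6 the myelocyte-like value was the lower in 6 of 6 libraries and the ranges of the classes did not overlap. The share of all tested genes without overlap was not counted. Fcnb averaged 7.85 ± 5.18 in myelocyte-like and 7.07 ± 3.39 in promyelocyte-like cells, was lower in myelocyte-like cells in 2 of 6 libraries, and its ranges overlapped.

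**Figure D2:**
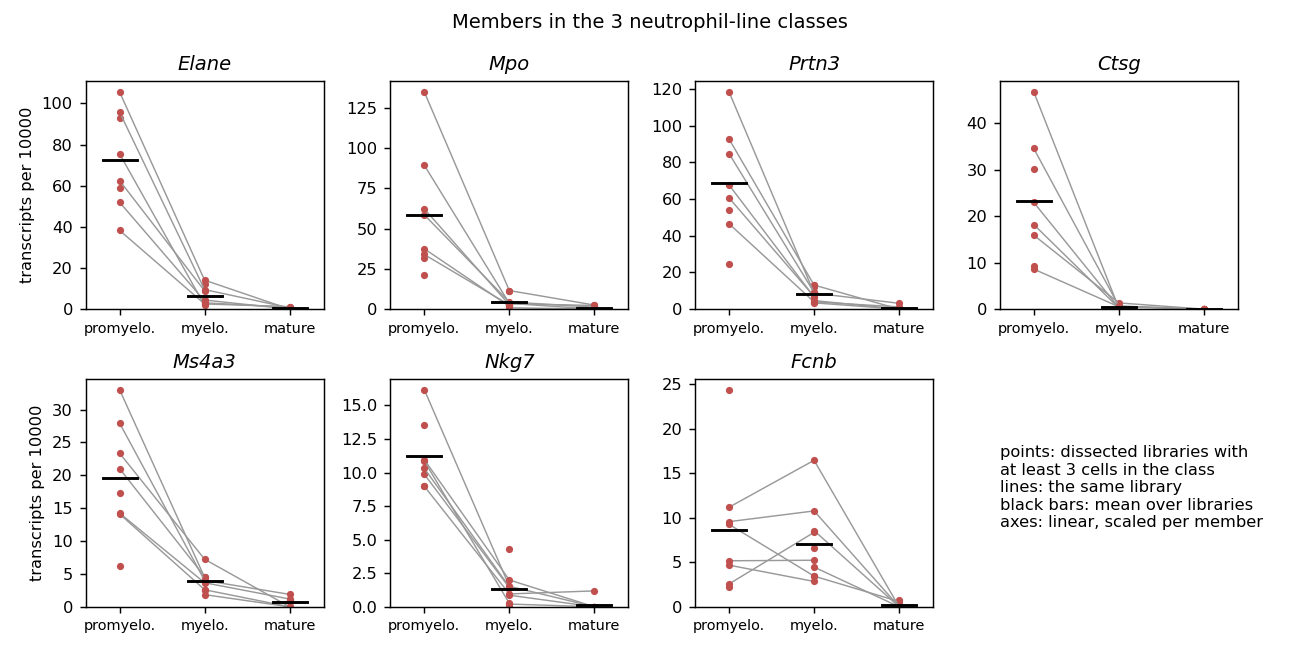
Transcripts per 10000 of each member in promyelocyte-like, myelocyte-like and mature neutrophil-like cells, 1 point per dissected library with at least 3 cells of the class, lines joining a library and a black bar at the mean. For 6 members the myelocyte-like values lie below the promyelocyte-like ones, while Fcnb reaches 16.5 in myelocyte-like cells.

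With the library as a term, edgeR called 6 members lower in myelocyte-like cells, where 29.4% of the 599 genes tested were called lower. Ctsg fell by 5.21 ± 0.32 on the log2 scale (adjusted p = 4.2e-16), the largest change of the set, followed by Mpo at -3.75 ± 0.19, Elane at -3.14 ± 0.22 and Prtn3 at -2.91 ± 0.18 (adjusted p = 9.51e-30, 9.89e-13 and 3.24e-25). Nkg7 stood at -2.76 ± 0.24 and Ms4a3 at -1.96 ± 0.18 (adjusted p = 1.08e-16 and 1.78e-15, edgeR). Fcnb stood at 0.52 ± 0.35 and was not called (adjusted p = 0.231, edgeR), and at -0.02 when scaled by library totals, which moved the median of all genes by -0.55. That scaling also moved the split of calls from 155 higher and 176 lower to 75 higher and 294 lower, and left the same 6 members called lower. Fcnb was called higher in myelocyte-like cells at the coarser clustering (log2 fold change 1.65, adjusted p = 6.23e-07), without the deepest 5% of cells (1.07, adjusted p = 0.00234) and without dissected replicate 10 (0.98, adjusted p = 0.00111, edgeR), so its call rests on these choices.

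Relative to the other granule enzymes, Fcnb changed in every library. The log2 ratio of Fcnb to the sum of Elane, Mpo, Prtn3 and Ctsg was -1.80, -1.09, -2.15, -1.31, -0.92 and -1.47 in myelocyte-like cells of dissected replicates 10, 11, 13, 15, 16 and 17. In promyelocyte-like cells of these replicates it was -4.09, -5.21, -5.15, -6.60, -4.71 and -5.32. The difference was 3.72 ± 1.02 (SD, n = 6), positive in 6 of 6 libraries (exact sign-flip permutation test, 2-sided, p = 0.0312, the smallest that 6 libraries allow). This ratio does not depend on how libraries are scaled. Tests of the other members against the sum of Elane, Mpo and Prtn3, added after the values were seen, did not pass after adjustment over 3 tests. The log2 ratio of Ctsg differed by -1.65 ± 1.503 and was lower in myelocyte-like cells in 5 of 6 libraries, that of Ms4a3 by 1.27 ± 0.51 and higher in 6 of 6, and that of Nkg7 by 0.40 ± 0.75 and higher in 4 of 6. Their unadjusted p were 0.0625, 0.0312 and 0.281, and the adjusted p 0.0938, 0.0938 and 0.281 (exact sign-flip permutation tests). With 6 libraries, 1 member alone could not pass over 3 tests even at the smallest p. Ms4a3 stood at that smallest p, the same unadjusted value as for Fcnb.

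The 2 myelocyte-like clusters are described side by side, with no test. In the 99 cells led by Chi3l3, Camp and Orm1, Fcnb was found in 73.7%, Ms4a3 in 63.6%, Prtn3 in 52.5%, Elane in 40.4% and Ctsg in 11.1% of cells, at a median of 3209 transcripts. Among the 47 cells led by AA467197, Ifitm6 and Ltf, Fcnb was found in 19.1%, Prtn3 in 12.8% and Elane in 10.6%, at a median of 1904 transcripts. Thinned to 1000 tags, the Fcnb share was 43.9% in the Chi3l3-led and 11.1% in the AA467197-led cells. Pooled levels of Fcnb were 8.02 and 2.08 transcripts per 10000 in these clusters, against 8.66 in promyelocyte-like cells.

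In mature neutrophil-like cells the members were close to absent. Over the 5 libraries with both classes, Fcnb averaged 0.119 ± 0.265 in mature neutrophil-like and 8.74 ± 5.24 in myelocyte-like cells, Prtn3 0.868 ± 1.38 and 6.77 ± 4.11, and Elane 0.544 ± 0.534 and 6.71 ± 4.96 (SD, n = 5 each). The ranges of these 3 did not overlap between the classes, while those of Mpo, Ctsg, Ms4a3 and Nkg7 did. Ctsg had 0 transcripts in all 7 libraries with at least 3 mature neutrophil-like cells. None of the 7 members passed edgeR's filter on low counts in this comparison, where 31.2% of the 224 genes tested were called lower in mature neutrophil-like cells. That background rests on few genes, and 86 genes in all were called without dissected replicate 9, against 135 with it. With no filter, 229 genes, or 2.3% of 9959, were called lower, and among them were Fcnb (log2 fold change -5.67 ± 0.77, adjusted p = 1.83e-10), Elane (-3.29 ± 0.61, adjusted p = 1.44e-05), Prtn3 (-3.02 ± 0.56, adjusted p = 2.0e-05), Ms4a3 (-2.75 ± 0.64, adjusted p = 0.00151) and Mpo (-1.97 ± 0.54, adjusted p = 0.0125). Nkg7 at -2.16 (adjusted p = 0.288) was not called, nor was Ctsg (adjusted p = 0.121, edgeR), which was at 0 in the mature cells. Any member transcript was found in 39.3% of the 56 mature neutrophil-like cells, against 42.2% of the 237 erythroblast-like cells, and in 32.7 and 29.7% of these classes when thinned to 1000 tags, so these low levels were not read as expression.

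**Figure D3:**
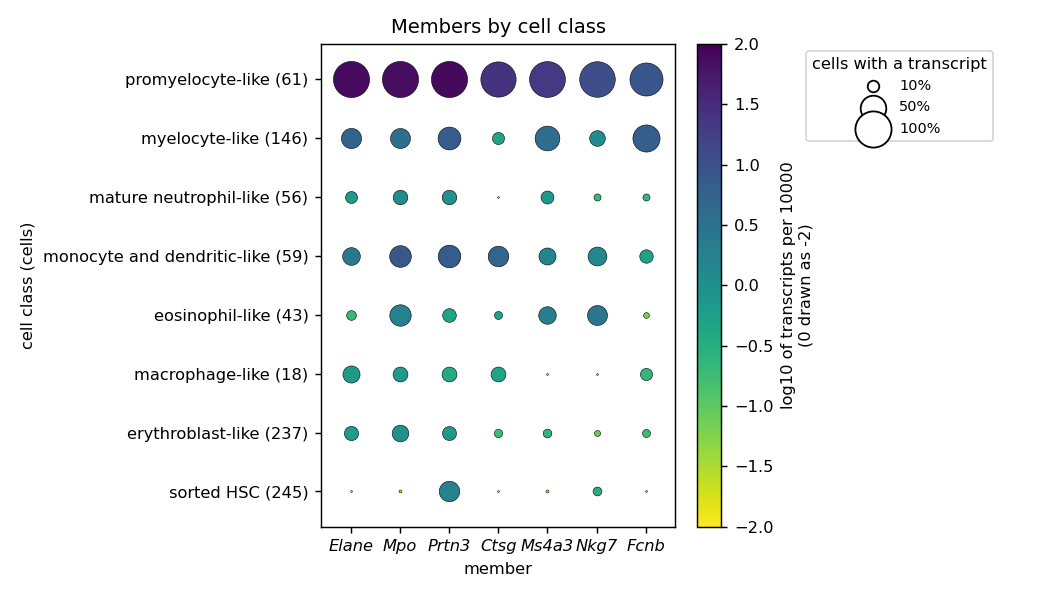
Members by cell class, with the dot area giving the percentage of cells with a transcript and the colour the log10 of transcripts per 10000 pooled over the cells (0 drawn as -2), and the number of cells in brackets. Promyelocyte-like cells hold all members, sorted HSC hold Prtn3 in 31.8% of cells, and eosinophil-like cells hold Nkg7 in 30.2%.

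Within single cells the members were found together. All 7 were found in 46 of 61 promyelocyte-like cells, and the remaining 15 had at least 5. In myelocyte-like cells 4 of 146 had all 7 and 28 had at least 5, and no mature neutrophil-like cell or sorted HSC had 5. These counts were not thinned to equal depth. Median depth was 5658 transcripts in promyelocyte-like, 2787 in myelocyte-like, 1407 in mature neutrophil-like and 1926 in sorted cells. Across the 263 cells of the neutrophil line, the 21 pairs of members had Pearson correlations of 0.25 to 0.88 on log2(1 + transcripts per 10000), highest for Elane with Prtn3 and lowest for Ctsg with Fcnb. Such correlations describe cells that share libraries, depth and stage. Within promyelocyte-like cells alone, Mpo and Prtn3 had r = 0.73 and Ctsg and Fcnb r = -0.47 over 61 cells. The 13 promyelocyte-like cells of dissected replicate 17, the 1 library with at least 10 of them, had r = 0.62 for the first and -0.63 for the second pair.

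Secondary granule genes gave a position along the line that the members did not set. The summed level of Ngp, Camp, Ltf and Lcn2 was taken in each cell of the neutrophil line. In 40 cells with 10 to under 100 such transcripts per 10000, Ctsg stood at 24.8, Elane at 80.2, Ms4a3 at 18.7 and Fcnb at 6.80 transcripts per 10000. In 108 cells with 100 to under 1000, Ctsg stood at 2.80, Elane at 28.4, Ms4a3 at 8.64 and Fcnb at 9.28. In 102 cells with 1000 or more, Ctsg stood at 0.338, Elane at 1.58, Ms4a3 at 2.50 and Fcnb at 5.25. Ctsg was thus the first of these to be low and Fcnb the last, and Mpo and Prtn3 ran close to Elane, with 22.6 and 27.7 in the middle range. Only 2 and 11 cells made up the ranges under 1 and from 1 to under 10, too few for a reading of their own. Of the 56 mature neutrophil-like cells, 45 had 100 or more such transcripts per 10000 and 11 fewer, so they are mixed into these ranges and the order is not purely one of stage.

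**Figure D4:**
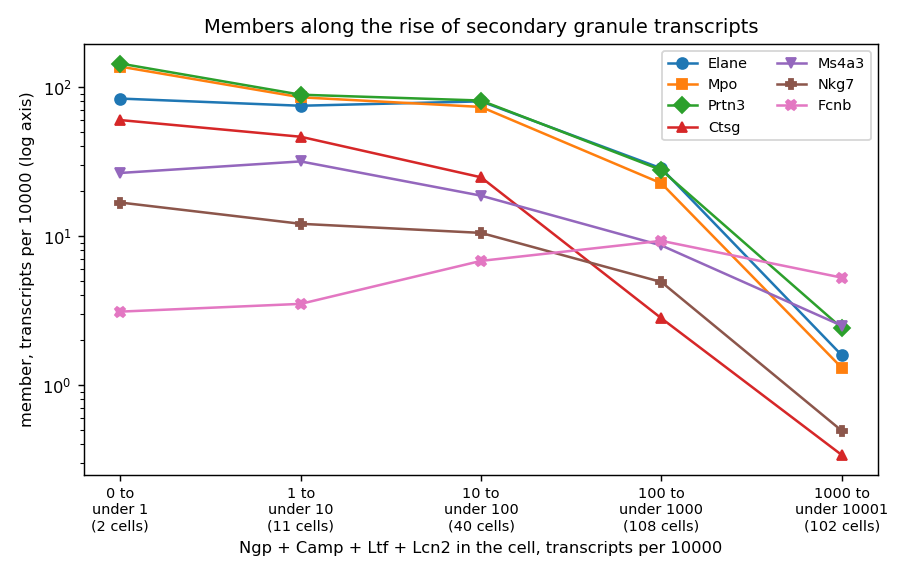
Transcripts per 10000 of each member, pooled over neutrophil-line cells in 5 ranges of the summed Ngp, Camp, Ltf and Lcn2 level, on a log axis with the number of cells under each range. Ctsg stands at 24.8 in the third range and 2.80 in the fourth, where Fcnb stands at 6.80 and 9.28, and the first 2 ranges hold 2 and 11 cells.

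Both granule programmes were present at once in a minority of cells. Counting a cell as positive at 1% of its transcripts, 15 of 61 promyelocyte-like cells were positive for both the summed Elane, Mpo, Prtn3 and Ctsg and the summed secondary granule genes, 40 for the first alone, 4 for the second alone and 2 for neither. Of 146 myelocyte-like cells, 3 were positive for both and 143 for the secondary genes alone. Fcnb was found in 17 of the 18 neutrophil-line cells positive for both, in 31 of 40 positive for the proteases and Mpo alone, and in 85 of 192 positive for the secondary genes alone. In promyelocyte-like cells at or above 1% secondary granule transcripts (19 cells), Ctsg stood at 7.07, Elane at 62.7 and Fcnb at 14.5 transcripts per 10000. Those below 1% (42 cells) had 34.6 of Ctsg, 82.6 of Elane and 5.90 of Fcnb.

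**Figure D5:**
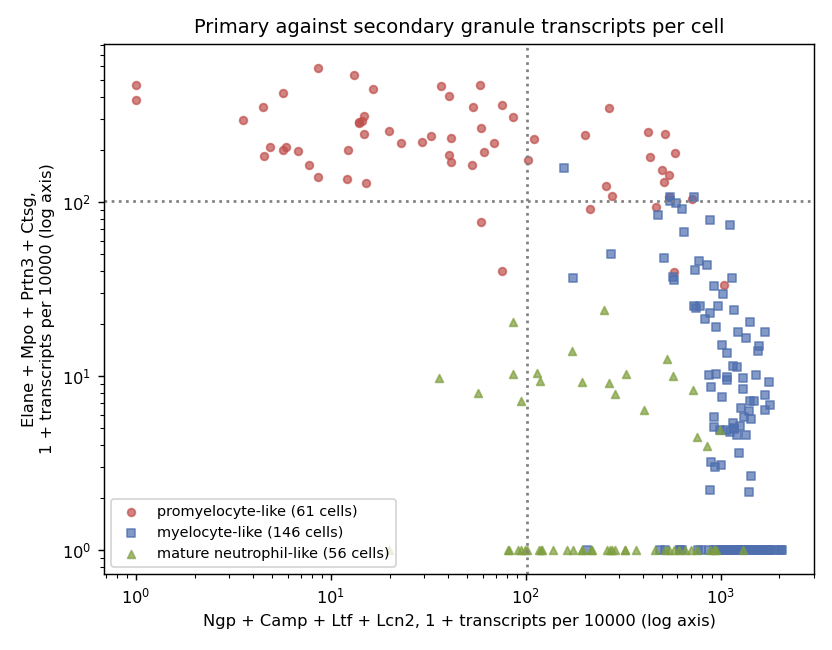
Summed Elane, Mpo, Prtn3 and Ctsg against summed Ngp, Camp, Ltf and Lcn2 in each of the 263 neutrophil-line cells, as 1 + transcripts per 10000 on log axes, with dotted lines at 1% of a cell's transcripts. The area above both lines holds 18 cells, 15 of them promyelocyte-like.

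Outside the neutrophil line, member levels by class are given without a test unless one is named. The unnamed cluster of dissected replicates 1 to 5 had 58.7 member transcripts per 10000 over its 59 cells, with Elane in 45.8% and Fcnb in 47.5% of them, and 11 cells had at least 5 members. Skeletal muscle-like cells had 50.8 over 11 cells, with Elane in 54.5%, and 4 of them had at least 5 members. Both lay above monocyte and dendritic-like cells, at 26.3, and eosinophil-like cells, at 7.82. Monocyte and dendritic-like cells had 8.18 transcripts per 10000 of Mpo, 7.07 of Prtn3, 5.10 of Ctsg and 2.54 of Elane, so Elane made up 9.67% of the members there and 25.7% in promyelocyte-like cells. Genes of the basophil and mast cell marker list had 28.2 transcripts per 10000 in this class, in 21 of its 59 cells. Their part in these levels was not tested. The class held 10 cells at Leiden resolution 0.5 and 25 at 1.5, so its name covers no fixed set of cells. Eosinophil-like cells had Mpo in 34.9%, Nkg7 in 30.2% and Ms4a3 in 23.3% of 43 cells, at a median of 2199 transcripts, with Elane in 6.98% and Fcnb in 2.33%. Thinned to 1000 tags, the share was 16.3% in eosinophil-like and 15.5% in erythroblast-like cells for Mpo, and 18.6 and 0.913% in these classes for Nkg7. Ms4a3 and Nkg7 were then set against erythroblast-like cells as a pair picked for these values. The summed level of Ms4a3 and Nkg7 averaged 5.47 ± 3.76 transcripts per 10000 in eosinophil-like and 0.226 ± 0.210 in erythroblast-like cells of the same libraries, and was higher in 7 of 8 (SD, n = 8). A test added after the values were seen gave p = 0.0156, or 0.0312 adjusted over 2 tests (exact sign-flip permutation test, 2-sided). The pair was picked in these same cells, so this p lends no separate support. Its adjustment leaves out the choice among members and classes. Elane averaged 0.321 ± 0.536 in eosinophil-like and 0.508 ± 0.609 in erythroblast-like cells (p = 0.531, exact sign-flip permutation test). All 13 eosinophil-like cells with Nkg7 also had Prg2 and Epx (eosinophil major basic protein and peroxidase), and 9 had Hdc and 9 had Fcer1a, genes of the basophil and mast cell list. A transcript of that list of 9 genes was found in all 13 of these cells and in 27 of the 43 cells, at 8.56 per 10000. Cpa3, also of the list, was found in 8 of the 43 cells and in 6 of the 13 with Nkg7. Cd200r3 was at 0 and Prss34 and Mcpt8 were found in 1 and 3 of the 43 cells. The part of the genes of this list in the result was not tested. Markers of the promyelocyte list, 7 of them, were also raised in this cluster, and their part was not tested. T and NK cell markers, since Nkg7 is known from those cells, gave 1 transcript over the 43 cells, with 12 of 13 genes at 0.

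The clump of each cell was read from the cell's name and gave which cells had been attached to each other. Partners were sought only among the 707 kept cells of 1546. Other clumps can thus have held a neutrophil-line cell that was not kept. Erythroblast-like cells from a clump that also held a neutrophil-line cell (59 cells) had 3.17 ± 3.21 member transcripts per 10000, and those from other clumps (166 cells) had 2.61 ± 1.33 (SD, n = 11 libraries each). The difference of 0.563 ± 3.48 was positive in 7 of 11 libraries and did not pass an exact sign-flip permutation test (2-sided p = 0.638). In 4 of the 11 libraries the attached value rests on 1 cell, since the minimum of 3 cells per class was not applied here. In the 6 libraries with at least 3 cells of each kind, a choice made after the values were seen, the means were 4.69 ± 3.20 for attached and 2.51 ± 1.68 for other cells, and the difference of 2.18 was positive in 5 of 6 (exact sign-flip permutation test, 2-sided p = 0.219). Over all 11 libraries, the difference turned to -0.186 without dissected replicate 13.

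Genes that serve the granule enzymes were tested in the same fits. Of 10 tested genes of folding and secretion in the endoplasmic reticulum, 7 were higher in promyelocyte-like cells than in sorted HSC and 0 lower, where 27.7% of all genes were called higher, with a median log2 fold change of 1.03 against 0.11 for all 837 genes. P4hb, a disulphide isomerase, stood at 1.68 ± 0.33 and the chaperone Calr at 1.17 ± 0.32 (adjusted p = 3.93e-05 and 0.0026, edgeR). All 6 tested at the next step were lower in myelocyte-like than in promyelocyte-like cells, where 29.4% of all genes were called lower, with a median of -1.69 against 0.01 for all 599 genes, Pdia6 at -2.92 ± 0.34 and Calr at -2.88 ± 0.22 (adjusted p = 1.62e-11 and 1.87e-19, edgeR). Calr had 1.66 transcripts per 10000 in myelocyte-like and 16.3 in promyelocyte-like cells. In dissected libraries against sorted HSC, where all 7 members were higher, edgeR called 0 of 10 genes of this list, with 2 at an unadjusted p under 0.05 and 2 called by DESeq2.

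Among genes of protease activation and storage, 4 of 5 tested were higher in promyelocyte-like cells than in sorted HSC (27.7% of all genes), among them Srgn, the proteoglycan that packs granule proteases, at 2.01 ± 0.32, and Cd63, a granule membrane protein, at 2.03 ± 0.31 (adjusted p = 1.08e-06 and 5.94e-07, edgeR). Srgn had 1.65 transcripts per 10000 in myelocyte-like and 31.3 in promyelocyte-like cells, a log2 fold change of -4.05 ± 0.21 (adjusted p = 9.59e-29, edgeR), while 2 of 5 tested genes of this list were lower at that step and 0 higher, a share near the 29.4% of all genes. Of the protease inhibitors, Serpinb1a, which inhibits neutrophil serine proteases, was the 1 tested and was higher in promyelocyte-like cells than in sorted HSC, at 4.88 ± 0.41 (adjusted p = 6.97e-14, edgeR). It stood at 23.7 transcripts per 10000 in myelocyte-like and 24.0 in promyelocyte-like cells and was not called between them. In mature neutrophil-like against myelocyte-like cells it fell by 1.78 ± 0.22 (adjusted p = 1.39e-05), while Slpi, a secreted inhibitor of elastase, rose by 2.91 ± 0.26 on the log2 scale (adjusted p = 1.27e-06, edgeR).

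Of 4 tested transcription factors, 3 were higher in promyelocyte-like cells than in sorted HSC, where 27.7% of all genes were. Cebpe and Cebpd, of the C/EBP family, had 4.15 and 2.68 transcripts per 10000 in promyelocyte-like cells, against a single transcript each in sorted HSC (adjusted p = 6.94e-12 and 1.04e-08, edgeR). Gfi1, a repressor needed for neutrophil maturation, stood at 3.25 ± 0.44 on the log2 scale (adjusted p = 2.99e-08, edgeR). Gfi1 and Myb were lower in myelocyte-like than in promyelocyte-like cells, at -1.65 ± 0.30 and -1.52 ± 0.31, while Cebpe and Cebpd were higher, at 1.06 ± 0.21 and 0.95 ± 0.27 (adjusted p = 2.54e-06, 3.34e-05, 8.42e-06 and 0.00187, edgeR). Pooled, Cebpe had 6.43 transcripts per 10000 in myelocyte-like cells and Cebpd 3.48. Scaling by library totals moved the median of all genes by -0.55 at this step, and the 4 values under that scaling are not given here. No gene of haem synthesis passed the filter in these comparisons, and all 7 were called higher in dissected libraries than in sorted HSC (19.2% of all genes), where erythroblast-like cells made up 237 of 707 dissected cells. Of the genomic neighbours listed, Etfb was called higher in promyelocyte-like cells than in sorted HSC, at 0.81 ± 0.32, and lower in myelocyte-like than in promyelocyte-like cells, at -1.43 ± 0.29 (adjusted p = 0.0353 and 1.88e-05, edgeR). Other genes next to the members differed in level: promyelocyte-like cells had 1 transcript of Cfd beside Elane, 0 of Lpo beside Mpo, 10.0 of Mcpt8 beside Ctsg and 4.01 of Ms4a2 beside Ms4a3. Ptbp1 beside Prtn3 had 127 transcripts in 47 promyelocyte-like cells, 45.2 in 33 myelocyte-like cells and 157 in 100 sorted HSC.

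The genes whose pattern was most like that of the summed members, among 6559 found in at least 5% of 707 dissected cells, were Gstm1 (r = 0.60), Igfbp4 (0.58), Plac8 (0.56), Cst7 (0.55), Gfi1 (0.53), Lta4h, Ptgr1, Prss57, Serpinb1a and Clec12a (0.49). Gstm1, Plac8, Cst7, Prss57 and Clec12a are among the markers that named the promyelocyte-like cluster. Lta4h (leukotriene A4 hydrolase) had 11.99 transcripts per 10000 in myelocyte-like and 16.3 in promyelocyte-like cells. Plac8 had 4.18 in myelocyte-like and 26.4 in promyelocyte-like cells.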

How the data were processed

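A single deposited table gives expected counts, that is transcripts estimated from tags, in 1915 cells and 23536 genes, over 17 dissected and 4 sorted HSC libraries. Reads were aligned with BWA 0.6.2-r126 to mm10, per the submitters' processing notes; no source used here states the counting steps. Values convert back to whole tags of a space of 256, and this correction raised the sums of Mpo by 17.4% and of Fcnb by 1.91%, so high levels carry more correction. Libraries were sequenced on a NextSeq500, or a HiSeq2500 for some sorted ones, per the labels' protocols, so group and instrument cannot be told apart in full. Of the labelled libraries, dissected replicate 18 and sorted HSC replicate 2 were not analysed here. Each column was taken as a cell, also for sorted libraries, which the submitters describe as 1 cell per sample. Groups come from the labels, and replicate numbers follow record order.

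Cells with at least 1000 transcripts were kept, and no 2 of them had identical profiles (0 repeats). Doublets were not called. Dissected cells were clustered with scanpy 1.11.5 and leidenalg 0.10.2 (2000 variable genes, 30 components, 15 neighbours, resolution 1). Markers counted as raised when found in 25% of a cluster's cells at 2-fold the level elsewhere. A name needed at least 2 of a list's markers among the 10 leading genes and at least 3 raised ones, or, where no list had 2 leading markers, at least 5 raised ones and no more than 50% as many of any other list. Members, pathway lists, markers and naming rule were chosen with earlier results of these data known. Transcripts were summed per library (and class, at least 3 cells), rounded, and tested with edgeR 4.0.16 in R 4.3.3 (TMM, filterByExpr, robust fit), adjusted by Benjamini-Hochberg at 0.05 over all genes tested. The SE is approximate (size of the log2 fold change divided by the root of its F statistic). The fits were tested on simulated data. DESeq2 1.42.0, other scalings, filters, clusterings and left-out libraries were alternatives. The genes named are the members, per pathway list the genes past the threshold (up to 4 by size), the 10 genes most like the summed members, and genomic neighbours; some of these are given as counts. Gfi1, Serpinb1a and others thus count under more than 1 part of the rule. Named classes come from the same cells that were compared, and members took no part in the clustering.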

Additional observations from a re-analysis of the deposited data

Results flagged for a closer look

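Of 40 sets of 4 to 10 libraries with a spread, 12 held a library whose gap to the next value was large for the range of the set (Dixon's 95% limit); chance gives about 1 in 20, and sets of mostly 0 are flagged easily. All values are transcripts per 10000.

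Dissected replicate 4 stood apart 4 times. It had 24.4 of Fcnb in promyelocyte-like cells, with the next library at 11.2. In eosinophil-like cells it had 3.09 of Ctsg and 0.51 of Fcnb, with the next libraries at 0.95 and 0, and in monocyte and dendritic-like cells 2.23 of Fcnb, with the next at 0.804. In myelocyte-like cells, dissected replicate 16 had 7.24 of Ms4a3 (next 4.597), replicate 12 had 4.32 of Nkg7 (next 1.999) and replicate 10 had 1.34 of Ctsg (next 0.664). Ms4a3 stood at 9.99 in eosinophil-like cells of dissected replicate 8 (next 4.03). For mature neutrophil-like cells, dissected replicate 17 had 3.15 of Prtn3 (next 1.19) and replicate 10 had 1.19 of Nkg7, with all others at 0. Sorted HSC replicate 3 had 0.042 of Mpo and replicate 4 had 0.0856 of Ms4a3, each a single transcript, with the other sorted libraries at 0.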

How the results depend on the processing

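All 7 members stayed called higher against sorted HSC in every alternative run for dissected libraries and for promyelocyte-like cells. In myelocyte-like against promyelocyte-like cells the 6 calls held in every alternative in which the gene was tested (Ctsg was not tested without the deepest 5% of cells), while Fcnb stood at -0.016 with library totals. Counts of called genes moved by over 1.5 times from 1106 to 584 with at least 2000 transcripts per cell and to 2838 with no filter (dissected over sorted HSC), from 386 to 2345 with no filter and to 192 without the deepest 5% of cells (promyelocyte-like over sorted HSC), and from 135 to 232 at Leiden resolution 0.5 and to 325 with no filter (mature neutrophil-like over myelocyte-like). Leaving out 1 library gave 743 to 1454, 303 to 499 and 86 to 178 calls in these 3 comparisons, and 282 to 357, against 331, in myelocyte-like over promyelocyte-like. The ratio of Fcnb to the granule enzymes differed by 3.89 with at least 5 cells per class (4 libraries, exact permutation p = 0.125) and by 3.41 to 4.01 with 1 library left out (p = 0.0625, the smallest that 5 libraries allow); the ratio of Ms4a3 differed by 1.17 to 1.43 and also had p = 0.0625. The attached difference ran from -0.186 to 0.945 with 1 library left out, and was -0.186 without dissected replicate 13 and 2.18 in libraries with at least 3 cells of each kind. The share of cells with any member transcript, 59.5% of dissected cells and 35.9% of sorted HSC, was 49.0 and 15.9% when thinned to 1000 tags and 71.1 and 45.9% with at least 2000 transcripts; in dissected cells it was 52.9% with at least 500. Apart from what fewer cells, genes or libraries bring by construction, the cause was not tested.

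No paired analysis was possible because replicate numbers follow record order and pair no dissected library with a sorted one. Classes within dissected libraries were compared library by library, and without the library term 283 and 132 genes were called at the 2 neutrophil steps. The authors' per-library files, sorted HSC replicate 2, and mature neutrophil-like cells with at least 2000 transcripts were not run. The limit of 1.49% for a gene at 0 in sorted HSC is on cells with a detected transcript, not on cells that express it.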
